A study of Mus musculus with 30 samples.

Results

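Gene expression was compared between the frontal and the occipital end of the newborn mouse cortex in wild-type animals, with 4 microarrays of frontal and 4 of occipital tissue taken at postnatal day (P) 0.5. These 8 arrays, chosen by their labels alone, belong to a series of 30 in which cortex with and without the transcription factor Tbr1 was measured. The 24 arrays at P0.5 fall into 6 groups of 4, namely frontal, parietal and occipital tissue of wild-type (WT) animals and of Tbr1 -/- animals (KO), all of the CD1 strain, while the remaining 6 arrays (E14.5 neocortex, 3 KO and 3 WT) were not used here. KO animals came from crosses of heterozygous parents, and the labels state no other change in either genotype. The labels call the tissue frontal, parietal or occipital brain, and give neither the borders of the dissection, nor the sex of the animals, nor whether an array holds 1 animal or several, so the p-values measure the spread between these samples. All 19938 genes read by a probe set naming 1 gene were tested, and each value below is a deposited log2 signal or a difference of log2 signals, frontal minus occipital.

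In the developing cortex, secreted signals set up opposite gradients of transcription factors along the front-to-back axis. Fibroblast growth factors (FGF) from the rostral pole favour frontal identity, and factors such as Nr2f1 (COUP-TFI) are highest caudally and favour sensory identity. These early gradients are followed, around birth, by area-restricted expression of adhesion molecules, guidance receptors and ion channels in neurons that are then growing their axons and receiving thalamic input, among them the visual areas at the occipital end and the motor and prefrontal areas at the frontal end.

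The array medians of the 24 arrays lay between 7.42 and 7.52, and precision is limited by having 4 arrays in a group. The cortical neuron gene Neurod6 read 11.26 to 12.09 in the 8 arrays and Tbr1 9.73 to 10.60, so the labelled tissue carried both. The mean of the 3 measured Y-linked genes was 8.99 to 9.15 in the frontal and 9.20 to 9.44 in the occipital arrays, close but without overlap. None of the 3 was called, but their spread was taken over all 6 groups, some of which mix arrays of high and low Y-linked signal. Eif2s3y differed by -0.28 with an SE of 0.973, although its SD was 0.104 in frontal and 0.145 in occipital arrays. The lack of a call therefore does not show that the regions are alike in these genes. Xist, the RNA of the inactive X chromosome, lay between 5.65 and 6.39 in all 8 arrays and overlapped. With the Y-linked mean as a covariate 1300 genes were called between the regions, against 1202 without it. WT parietal replicate 2 differed, with a Y-linked mean of 5.76 and Xist at 12.14, and WT parietal replicate 3 read Xist at 8.65. The mean of 9 meningeal and fibroblast genes stood apart in 2 arrays of each group, at 9.18 and 9.82 in frontal replicates 1 and 4 and at 9.11 and 8.78 in occipital replicates 1 and 4, against 7.05 to 7.69 in the other 4. Occipital replicate 1 also had the highest means of the choroid plexus genes (8.02, against 6.54 to 7.09 in the other 7) and of the thalamus genes (8.53, against 7.79 to 7.96).

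**Figure D1:**
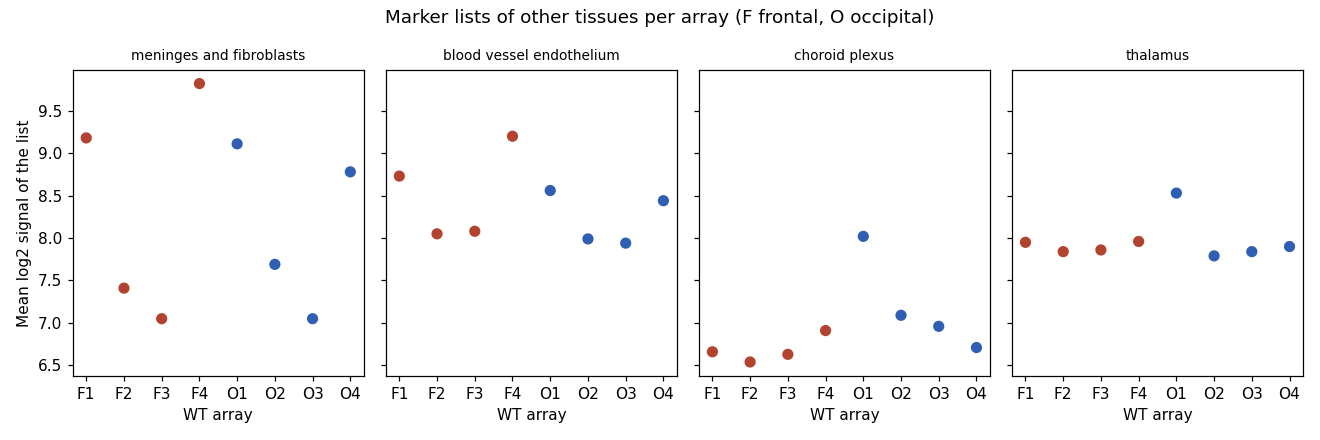
Mean log2 signal of 4 marker lists of other tissues in each WT frontal (F) and occipital (O) array, 1 point per array. Meningeal genes were high in 2 arrays of each group (F1, F4, O1 and O4), and choroid plexus and thalamus genes were highest in O1.

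The first question was which genes differ between the ends of the newborn cortex. Of the 19938 genes, 1202 (6.03%) were called at a limma adjusted p under 0.05, of which 451 (2.26%) were higher in frontal and 751 (3.77%) higher in occipital tissue. The median size of a called difference was 1.30-fold, 209 genes (1.05%) differed by at least 1.5-fold (70 frontal higher, 139 occipital higher), and 44 by at least 2-fold (15 and 29). The 4 frontal and 4 occipital values did not overlap in 938 of the called genes and in 2506 of all genes (12.6%). The median difference over all genes was 0.025. The spread was estimated over all 6 groups, and from the 8 arrays alone 287 genes were called, 278 of them among the 1202. In the fit of all 6 groups, leaving out 1 array changed the 1202 calls to 441 (occipital replicate 2) or 556 (occipital replicate 3). The count was 545 without frontal replicate 4, 766 without frontal replicate 3 and 1917 without frontal replicate 1. The larger number on the occipital side did not hold in every setting. Without occipital replicates 2 and 3 together, a setting chosen after seeing the data, 160 genes were higher in frontal and 134 in occipital tissue.

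**Figure D2:**
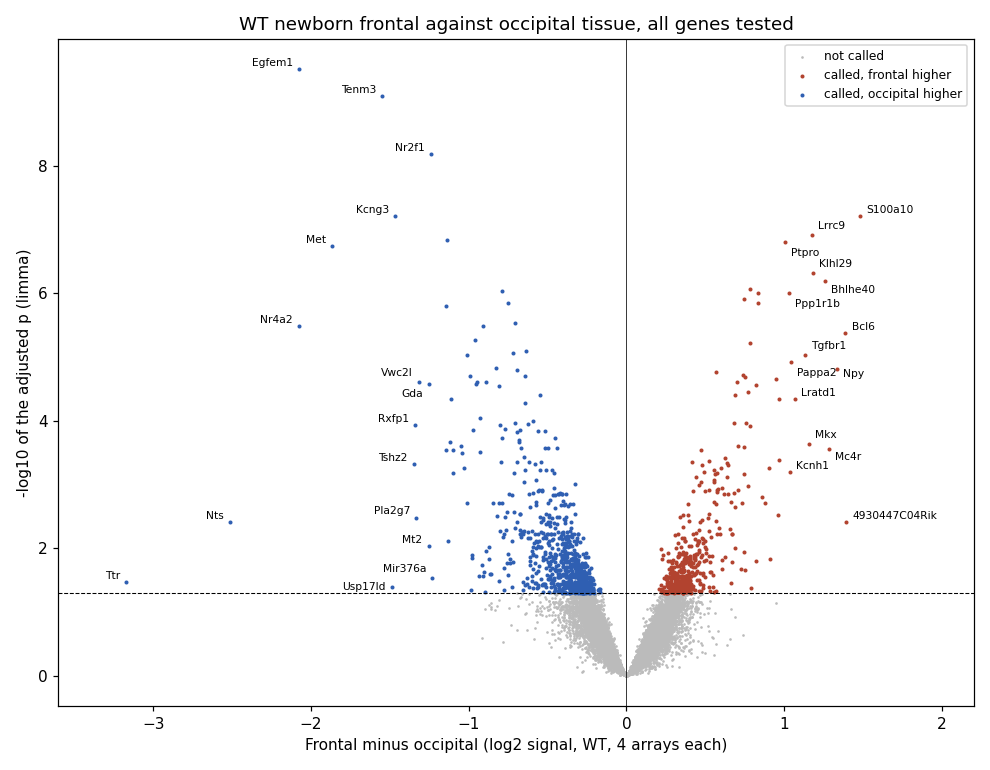
Frontal minus occipital difference in log2 signal (x axis) against the -log10 of the limma adjusted p (y axis) for every gene tested, with the dashed line at 0.05. The 15 largest non-overlapping differences each way and Ttr are named, and those on the occipital side reach further from 0 than those on the frontal side.

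On the frontal side the 15 largest differences among called genes with non-overlapping values ranged from 2.00-fold to 2.79-fold (SE 0.0937 to 0.282, limma adjusted p 6.17e-08 to 0.00393). They held a calcium-binding protein (S100a10), transcription factors (Bcl6, Bhlhe40, Mkx), a neuropeptide and a peptide receptor (Npy, Mc4r), a growth factor receptor (Tgfbr1), a protease (Pappa2), a potassium channel (Kcnh1), a phosphatase inhibitor (Ppp1r1b) and a receptor phosphatase (Ptpro), besides Klhl29, Lrrc9, Lratd1 and 4930447C04Rik.

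S100a10, which encodes the annexin A2 partner p11 and is used as a marker of layer 5 neurons, read 10.98, 11.13, 11.14 and 11.11 in frontal replicates 1 to 4 and 9.74, 9.19, 9.69 and 9.82 in occipital replicates 1 to 4. The frontal arrays lay close together and more than 1 log2 unit above every occipital array. The difference was 1.48 (SE 0.129, 2.79-fold, limma adjusted p = 6.17e-08).

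Transcription factor genes among the 15 included a pair of repressors. Bcl6, a zinc finger repressor that drives progenitors towards neurons, read 9.14, 8.86, 9.26 and 8.90 in frontal and 7.37, 7.66, 7.87 and 7.71 in occipital arrays. Its difference was 1.39 (SE 0.161, limma adjusted p = 4.19e-06). Bhlhe40, a basic helix-loop-helix repressor also known from the circadian clock, read 8.73, 8.84, 8.06 and 8.24 in frontal against 7.25, 7.20, 7.28 and 7.09 in occipital arrays, a difference of 1.26 (SE 0.128). Its frontal values fell into a higher pair, replicates 1 and 2, and a lower pair, and both pairs lay above all occipital arrays. Mkx, the homeobox factor Mohawk known from tendon, differed by 1.16 (SE 0.179).

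Npy, the peptide neurotransmitter of a class of GABAergic interneurons, read 11.22, 11.56, 11.72 and 11.26 in frontal and 9.40, 10.41, 10.59 and 10.04 in occipital arrays, a difference of 1.33 (SE 0.168, limma adjusted p = 1.57e-05). Occipital replicate 1 was the lowest. Mc4r, the melanocortin receptor of the appetite pathway, read 9.79, 9.88, 9.16 and 9.56 against 7.50, 8.30, 9.08 and 8.38, a difference of 1.28 (SE 0.203). Its groups did not overlap, but the gap between the lowest frontal and the highest occipital array, both replicate 3, was narrow.

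Tgfbr1, the type I receptor for transforming growth factor beta, read 10.61, 10.75, 11.31 and 10.66 in frontal and 9.39, 9.87, 10.14 and 9.38 in occipital arrays, and differed by 1.13 (SE 0.138). Lrrc9, a leucine-rich repeat gene, read 7.67, 7.55, 7.46 and 7.30 against 6.47, 6.37, 6.25 and 6.20, with a difference of 1.17 (SE 0.107, limma adjusted p = 1.25e-07). Its spread within each group was small beside the gap between them. The remaining 7 were Klhl29, a kelch-like protein (1.18), Lratd1 (1.07), Pappa2, which cleaves insulin-like growth factor binding proteins (1.04), Kcnh1, a voltage-gated potassium channel of the ether-a-go-go family (1.03), Ppp1r1b, the dopamine-regulated inhibitor DARPP-32 (1.03), Ptpro (1.00) and 4930447C04Rik (1.39).

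On the occipital side the 15 largest differences ran from 2.35-fold to 5.71-fold (SE 0.0957 to 0.509, limma adjusted p 3.07e-10 to 0.0407). Nts, the peptide neurotensin, was the largest. It read 7.59, 7.08, 6.04 and 7.41 in frontal and 11.79, 8.95, 7.97 and 9.47 in occipital arrays, a difference of -2.51 (SE 0.509, limma adjusted p = 0.00388). The occipital arrays spread over almost 4 log2 units, with replicate 1 highest, and all lay above the highest frontal array. In the fit of only the 8 arrays compared the adjusted p of Nts was 0.0626.

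Nr4a2, an orphan nuclear receptor (Nurr1) of subplate and claustrum neurons, read 7.53, 7.71, 8.02 and 7.86 in frontal and 9.79, 9.57, 9.64 and 10.44 in occipital arrays. The difference was -2.08 (SE 0.236, 4.22-fold, limma adjusted p = 3.24e-06), with a gap of more than 1 log2 unit between the groups. Egfem1, a gene for a protein with EGF-like repeats, read 7.12, 7.14, 6.57 and 7.06 against 9.06, 9.36, 8.84 and 8.93, also a difference of -2.08 but with the lower SE of 0.133 and the lowest adjusted p of all genes (3.07e-10). Met, the receptor for hepatocyte growth factor, read 8.24, 8.70, 9.10 and 8.19 against 9.96, 10.81, 10.58 and 10.36, a difference of -1.87 (SE 0.177).

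Tenm3, a teneurin that matches axons to targets in the visual system, read 9.93, 10.03, 10.14 and 9.61 in frontal and 11.38, 11.76, 11.44 and 11.33 in occipital arrays, a difference of -1.55 (SE 0.107, limma adjusted p = 8.11e-10). Nr2f1, the caudal area factor, read 9.63, 9.74, 9.54 and 9.51 against 10.55, 10.97, 10.99 and 10.88, a difference of -1.24 (SE 0.0957, limma adjusted p = 6.62e-09). In both genes the range within each group was smaller than the gap between the groups.

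The other 9 were Kcng3, a silent subunit of voltage-gated potassium channels (-1.47), Tshz2, a teashirt zinc finger factor (-1.35), Rxfp1, the relaxin receptor (-1.34), Pla2g7, which inactivates platelet-activating factor (-1.33), Vwc2l, a secreted protein of the von Willebrand factor C family (-1.31), Mt2, a metallothionein (-1.25), Gda, a guanine deaminase of dendrites (-1.25), the microRNA gene Mir376a (-1.23) and Usp17ld (-1.49). Usp17ld belongs to a family of near-identical deubiquitinase genes that a probe set can mix, so its value is uncertain. Its call was lost without frontal replicate 1, 2 or 4 or occipital replicate 2, 3 or 4 (highest limma adjusted p 0.117), and that of Mt2 without frontal replicate 4 (0.0507). Tshz2 followed the pattern of Nts, with 9.80 in occipital replicate 1, 7.87 in replicate 3 and 7.26 to 7.52 in the frontal arrays.

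**Figure D3:**
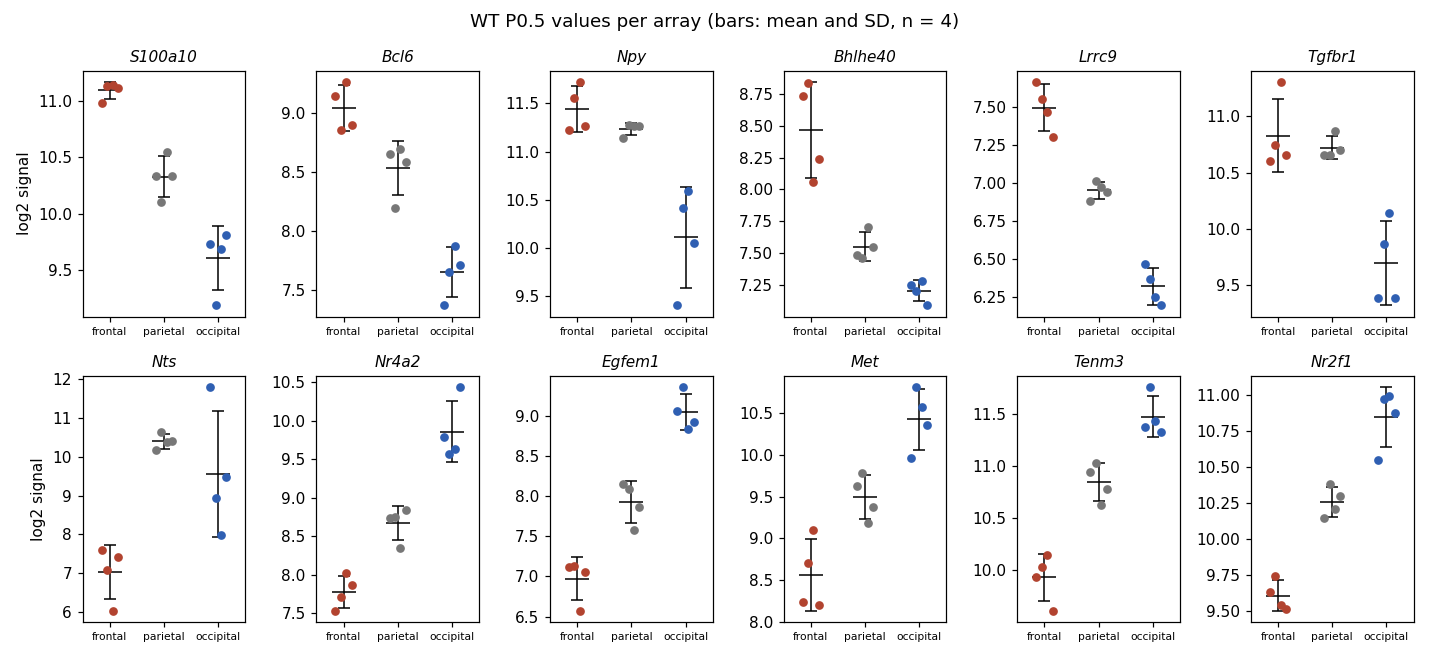
Log2 signal of 12 genes in each WT frontal, parietal and occipital array at P0.5 (4 points per region, bars for mean and SD, a y axis of its own for each gene). In 11 of the 12 genes the parietal mean lies between the others, and for Nts all 4 parietal arrays lie above 3 of the 4 occipital arrays.

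Genes were then grouped into 41 lists by area, layer, cell type and function. These lists were chosen with earlier results of these data known, so their counts describe these arrays and were not tested. Of 487 listed genes 462 were measured, and 93 were called, 35 higher in frontal and 58 in occipital tissue, beside 2.26% and 3.77% of all genes. With 1 array left out at a time this was 63 to 104, and 48 in a fit of the 8 arrays alone. Without occipital replicates 2 and 3 together 29 were higher in frontal and 31 in occipital tissue. Calls lost in the fit of the 8 arrays alone are not all named below.

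Genes of area patterning were called mainly for the caudal factors. Of 9 measured genes of the caudal cortex, 4 were higher in occipital and none in frontal tissue, with a list median of -0.39. Besides Tenm3 and Nr2f1 these were Fgfr3, an FGF receptor graded from caudal to rostral, at -0.52 (SE 0.081, with the 4 occipital arrays at 8.60 to 8.73 above the highest frontal one at 8.31), and the LIM factor Lhx2 at -0.39. Nr2f2, the close relative of Nr2f1, stood at -0.40 and was not called (limma adjusted p = 0.139), and Emx2 stood at -0.05. Of 6 rostral genes none was higher in frontal tissue. Sp8 stood at 0.10, Lmo4 at 0.12 and Auts2 at 0.19, and Pax6, rostrally high in early progenitors, was higher in occipital tissue at -0.60. Lhx2 lost its call without frontal replicate 4 or occipital replicate 2 or 3 (highest limma adjusted p 0.0954), and Pax6 without frontal replicate 2, 3 or 4 or occipital replicate 2 or 3 (0.0958).

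Some feedback targets of FGF signalling were higher in frontal tissue, and others were not called. Dusp6, the phosphatase that switches off ERK, read 9.52, 9.53, 9.21 and 9.49 in frontal and 8.66, 8.58, 8.23 and 8.49 in occipital arrays, a difference of 0.95 (SE 0.123, limma adjusted p = 2.20e-05). Etv5, an ETS factor induced by FGF, rose by 0.59 from occipital to frontal tissue (SE 0.126), and the inhibitor Spred2 by 0.52 (SE 0.123). The groups overlapped in both, with frontal replicate 3 below occipital replicate 1 (Etv5 8.60 and 8.67, Spred2 10.53 and 10.54). Etv5 lost its call in the fit of the 8 arrays alone. Of the ligands Fgf18 was called at 0.28 and Fgf8 (0.29) and Fgf17 (0.14) were not. Of the 16 genes of this list 4 were higher in frontal and 1, Fgfr3, in occipital tissue, and the inhibitors Spry2 (-0.31) and Spry4 (0.25) were not called. Without occipital replicate 2 or 3 the 4 were 2, and without frontal replicate 1 or 2 the 1 was 2. Fgf18 was lost in 5 of the 8 fits with 1 array left out (without frontal 2, 3 or 4 or occipital 2 or 3; highest limma adjusted p 0.165), and Spred2 without occipital 2 or 3 (0.057).

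Retinoid genes were called on the frontal side. Dhrs3, which reduces retinal and so limits retinoic acid, read 8.78, 8.85, 8.95 and 8.86 against 8.10, 8.05, 7.97 and 7.97, a difference of 0.83 (SE 0.0904, limma adjusted p = 1.45e-06). Rbp4, the retinol carrier, stood at 0.43. The synthesis enzyme Aldh1a3 (0.20) and the degrading enzyme Cyp26b1 (0.27) were not called, and 12 of 14 were not. In the Wnt list Rspo2, a secreted enhancer of Wnt signalling, was higher in frontal tissue at 0.82, and the receptor Fzd1 (-0.54) and the secreted Dkk3 (-0.65) were higher in occipital tissue, out of 21. The call of Rspo2 was lost without occipital replicate 2 or 3 (highest limma adjusted p 0.0826).

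Few markers of the cortical layers were called, at most 2 on either side of a list, beside 2.26% of all genes in frontal and 3.77% in occipital tissue. Counts this small show no pattern by layer. In the layer 6 list Syt6, a synaptotagmin of corticothalamic neurons, was higher in frontal tissue (8.64, 8.85, 8.79 and 8.45 against 8.10, 7.69, 7.94 and 7.87; difference 0.78, SE 0.0929, limma adjusted p = 6.00e-06). Ntsr1, the neurotensin receptor of the same layer, was higher in occipital tissue at -0.49 (SE 0.1), and the other 9 of 11 genes, Tbr1 (0.24, limma adjusted p = 0.21) and Tle4 (0.25) among them, were not called. In the subplate list the synaptic organiser Nxph4 and the matricellular protein Ccn2 were each higher in frontal tissue at 0.53 and Nr4a2 in occipital tissue, out of 10. In the layer 5 list S100a10 and the formin Diaph3 (0.49) were higher in frontal tissue and the contactin Cntn6 in occipital tissue (-1.10), while the layer's defining factors Fezf2 (-0.23) and Bcl11b (0.09) were not called. In the upper layer list the POU factor Pou3f3 was higher in frontal tissue (0.46) and Lhx2 in occipital tissue, and Rorb, a nuclear receptor of layer 4, missed the threshold at 0.66 (limma adjusted p = 0.0534). In the Cajal-Retzius list Ndnf, a secreted factor also of layer 1 interneurons, was higher in occipital tissue (-0.87), and Reln (-0.16) was not called.

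Leaving out 1 array moved these small counts. Diaph3 and Ndnf were lost without frontal replicate 4 or occipital replicate 2 or 3 (highest limma adjusted p 0.164 and 0.0737). The upper layer list gained frontal calls, to 2 without frontal replicate 4 and 3 without occipital replicate 3, and the layer 5 list had 2 occipital calls without frontal replicate 1. In bulk tissue fewer cells of a type and less RNA per cell cannot be told apart.

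Neuronal transcription factors of the basic helix-loop-helix family were called both ways. Neurod6 read 12.00, 12.09, 11.93 and 12.00 in frontal and 11.45, 11.43, 11.57 and 11.26 in occipital arrays, a difference of 0.58 (SE 0.104), and Neurod2 differed by 0.31 (SE 0.0659). Both drive the maturation of excitatory cortical neurons. Neurod1, made by younger neurons, was higher in occipital tissue (-0.90), but its values overlapped, with frontal replicate 1 at 8.65 among the occipital arrays (8.10 to 9.04), and its call was lost without frontal 2, 3 or 4 or occipital 2 or 3 (highest limma adjusted p 0.188). The 4 measured nuclear factor I genes were not called, and 11 of the 15 genes of this list were not.

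Adhesion and recognition molecules made up the list with the most calls on the occipital side. Of 18 contactins, teneurins, latrophilins and their partners, 9 were higher in occipital and 1 in frontal tissue, with a median of -0.36, against a median of 0.025 and 3.77% called occipital over all genes. Tenm2, the second teneurin, read 10.10, 10.42, 10.07 and 10.34 in frontal and 11.29, 11.13, 10.76 and 10.99 in occipital arrays, a difference of -0.81 (SE 0.108). Flrt3, a ligand shared by latrophilins, teneurins and Unc5 receptors, read 8.31, 8.18, 7.87 and 7.92 against 8.81, 9.10, 9.09 and 9.10, a difference of -0.96 (SE 0.113, limma adjusted p = 5.45e-06). The contactins Cntn6 (-1.10), Cntn3 (-0.84), Cntn4 (-0.65) and Cntn5 (-0.34) and the neurexin-like Cntnap4 (-0.53) and Cntnap2 (-0.50) were higher in occipital tissue too.

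Adgrl2, a latrophilin, went the other way. It read 12.06, 12.27, 12.51 and 12.10 in frontal and 11.73, 11.32, 11.68 and 11.39 in occipital arrays, a difference of 0.70 (SE 0.0926). Cntn1 (0.14), Cntn2 (0.09), Tenm4 (-0.20) and Adgrl3 (-0.14) were not called. Cntn4 and Cntnap2 lost their calls in 5 of 8 fits with 1 array left out, both without frontal 4 or occipital 1, 2 or 3, and Cntn4 also without frontal 1 and Cntnap2 without frontal 3 (highest limma adjusted p 0.158 and 0.132). Cntn5 was lost without occipital 2 (0.0749).

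Among classical cadherins Cdh20 stood apart from the rest of its list. It read 7.15, 7.06, 7.17 and 7.08 in frontal and 7.99, 8.57, 8.18 and 8.26 in occipital arrays, a difference of -1.13 (SE 0.105, limma adjusted p = 1.47e-07). Cdh11 was called at 0.30 in frontal tissue, and was lost without frontal 2 or 4 or occipital 2 or 3 (highest limma adjusted p 0.166). The other 14 of 16 were not called, Cdh8 (-0.05) among them. Of 10 delta protocadherins, Pcdh17 (0.74, SE 0.0952) and Pcdh20 (0.66, SE 0.186) were higher in frontal and Pcdh8 (-0.47, SE 0.0941) in occipital tissue. Pcdh17 read 9.85 to 10.21 in frontal and 9.10 to 9.38 in occipital arrays. Pcdh20 was lost without frontal 1, 2 or 4 or occipital 1, 2 or 4 (highest limma adjusted p 0.0819), and the occipital calls of this list were 2 without frontal 1 or 2.

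Guidance receptors and their ligands were called both ways, more often on the occipital side. In the Eph family the receptors Epha3 (-0.80), Epha5 (-0.64) and Epha6 (-0.99) were higher in occipital tissue. Epha6 read 7.90, 8.22, 7.74 and 7.66 in frontal and 9.02, 8.94, 8.42 and 9.10 in occipital arrays (SE 0.128, limma adjusted p = 2.01e-05), and Epha5 read 9.97 to 10.24 and 10.68 to 10.90. The kinase-dead receptor Ephb6 was higher in frontal tissue (0.55, SE 0.0967). Of the ligands Efnb3 was higher in occipital (-0.44) and Efna2 in frontal tissue (0.23). Efna5, the ligand used to mark somatosensory cortex, stood at 0.41 and was not called, and Epha7 stood at -0.03. In all 2 of 21 were higher in frontal and 4 in occipital tissue. Efna2 was lost without frontal 2 or 3 or any of occipital 1 to 4 (highest limma adjusted p 0.121).

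Of 21 semaphorins, plexins and neuropilins 5 were higher in occipital and 2 in frontal tissue. Nrp1, the receptor shared by class 3 semaphorins and VEGF, read 9.29, 9.26, 9.47 and 9.61 in frontal and 10.87, 10.24, 9.79 and 9.88 in occipital arrays, a difference of -0.78 (SE 0.169). Occipital replicate 1 was the highest, and the others lay close above the frontal range. The ligand Sema3e stood at -0.69 (SE 0.114) and the receptor Plxnc1 at -0.61, with Sema6d (-0.39) and Sema4d (-0.25) below them. Plxna2 (0.30) and the membrane-bound Sema7a (0.36) were higher in frontal tissue. The 5 occipital calls were 3 without frontal 3, frontal 4 or occipital 2, and the 2 frontal calls were 0 without frontal 3 and 1 without occipital 2, 3 or 4. The calls of Sema6d, Sema4d, Plxnc1, Plxna2 and Sema7a were each lost in at least 1 of these fits (highest limma adjusted p 0.0824, 0.107, 0.0586, 0.0848 and 0.089), that of Sema4d also without occipital 1.

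In the Slit and netrin list the ligand and the receptor of one pathway lay on opposite sides. Slit2, a repellent for growing axons, read 7.83, 7.59, 7.16 and 7.56 in frontal and 8.36, 8.44, 8.84 and 8.65 in occipital arrays, a difference of -1.04 (SE 0.166, limma adjusted p = 3.23e-04). Its receptor Robo1 read 11.37, 11.36, 11.21 and 11.20 against 10.78, 10.76, 10.96 and 10.90, a difference of 0.43 (SE 0.105) the other way. Slit1 (-0.30), the netrin receptor Unc5a (-0.43), the netrin and repulsive guidance molecule receptor Neo1 (-0.40) and its ligand Rgma (-0.31) were higher in occipital tissue, so that 5 of 18 were called there and 1 in frontal tissue. Robo2 (0.21), Dcc (0.28) and Ntn1 (0.21) were not called. Robo1 was lost without occipital 2 (highest limma adjusted p 0.0623), Rgma without frontal 4 or occipital 2 (0.0768), and Slit1 without frontal 3 or 4 or occipital 2, 3 or 4 (0.171).

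Receptors for GABA and glutamate were called on the occipital side. Of 9 measured GABA-A receptor genes 4 were higher in occipital tissue, Gabrb1 (-0.95, SE 0.125), Gabrg1 (-1.10, SE 0.187), Gabra2 (-0.80, SE 0.152) and Gabra4 (-0.49, SE 0.113). Gabrb1 and Gabra4 are encoded by neighbouring genes of 1 cluster with Gabra2 and Gabrg1. Gabrg1 read 6.84, 6.85, 6.15 and 6.25 in frontal and 7.94, 7.73, 7.47 and 7.34 in occipital arrays. The subunits Gabra3 (0.28), Gabra5 (0.40) and Gabrb2 (0.12) were not called. Of 21 glutamate receptor genes, the kainate receptor Grik2 (-0.80, SE 0.118; 9.97 to 10.54 in frontal and 10.95 to 11.14 in occipital arrays), Grm7 (-0.49), Gria1 (-0.43) and Grik1 (-0.53) were higher in occipital tissue, and the NMDA receptor genes Grin2a (-0.03) and Grin2b (0.04) were not called. These 4 were 2 without frontal 3 or 4 or occipital 2, 3 or 4, where Gria1 and Grik1 were lost (highest limma adjusted p 0.156 and 0.213). Gria1 was also lost without occipital 1, and Gabra4 without frontal 4 or occipital 2 (0.0588).

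Of 23 potassium channel genes 3 were higher in frontal and 1 in occipital tissue. The frontal genes were Kcnh1, its close relative Kcnh5 (8.67 to 9.44 against 7.77 to 8.45, difference 0.73, SE 0.138) and Kcna1, a delayed rectifier of axons (0.39). Kcnk2, a leak channel, was higher in occipital tissue (-0.48), and without 1 array its side of the list had 2 calls (frontal 2 or occipital 4) or 3 (occipital 1). Of 15 neuropeptides Npy and Grp, the gastrin-releasing peptide (0.91), were higher in frontal and Nts in occipital tissue. Grp read 9.03, 9.68, 8.12 and 8.70 in frontal and 7.90, 7.97, 8.04 and 7.98 in occipital arrays, so that frontal replicate 3 lay close to the occipital range.

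Genes of neuron maturation and synapses were called on the occipital side, 5 of 20, with a median of -0.22. The neurofilament chains Nefl (-0.73, SE 0.134) and Nefm (-0.67, SE 0.105), the kinase subunit Camk2a (-0.59, SE 0.108), Syn2 (-0.48) and Sncb (-0.26) were higher there, and the early neuronal genes Dcx (-0.08), Stmn2 (0.08) and Tubb3 (0.18) were not called. Nefm read 8.52, 9.09, 8.62 and 8.66 in frontal and 9.39, 9.43, 9.12 and 9.61 in occipital arrays. The count was 3 without frontal 4, occipital 2 or occipital 4, where Syn2 and Sncb were lost (highest limma adjusted p 0.141 and 0.066), and Syn2 was also lost without frontal 3 or occipital 3. Of 14 immediate early genes Nr4a1 (0.29) was called in frontal tissue, but not without frontal 4 or occipital 2, 3 or 4 (0.17).

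Of 12 genes of radial glia, the stem cells of the cortex, 5 were higher in occipital tissue, with a list median of -0.295. Fabp7, the brain fatty acid binding protein, read 11.94, 11.76, 11.36 and 11.12 in frontal and 12.11, 12.31, 12.31 and 12.27 in occipital arrays, a difference of -0.70 (SE 0.146, limma adjusted p = 0.00476). The receptor phosphatase Ptprz1 (-0.39), the matrix protein Tnc (-0.62) and the stem cell factors Sox2 (-0.56) and Pax6 (-0.60) were the others, and Hes1 (0.02), Hes5 (0.05), Nes (-0.14) and Vim (-0.20) were not called. The 5 calls were 3 without frontal 2 or occipital 1 and 2 without frontal 3, frontal 4, occipital 2 or occipital 3. Sox2 and Tnc were lost in 6 of the 8 fits each (highest limma adjusted p 0.143 and 0.168), Pax6 in 5.

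No gene of intermediate progenitors (0 of 9, median -0.137) and none of cell division (0 of 15, median 0.056) was called by limma, beside 6.03% of all genes. In lists this short, counts of 0 do not show that the regions are alike. Of 8 astrocyte genes Aldoc, a glycolytic enzyme of astrocytes and their precursors, was called. It read 10.73, 10.02, 9.62 and 9.43 in frontal and 10.99, 11.17, 11.07 and 11.09 in occipital arrays, a difference of -1.13 (SE 0.25). Its occipital values lay close together and its frontal values were spread widely, replicate 1 being the nearest to the occipital range. Aqp4 (-0.53), Aldh1l1 (-0.50) and Slc1a2 (-0.34) were not called, and the count was 3 without frontal 1 and 2 without frontal 2. Of 9 microglia genes Aif1 (-0.39) was called, but not without frontal 4 or occipital 2 or 3 (highest limma adjusted p 0.063), and none of 8 oligodendrocyte lineage genes was.

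**Figure D4:**
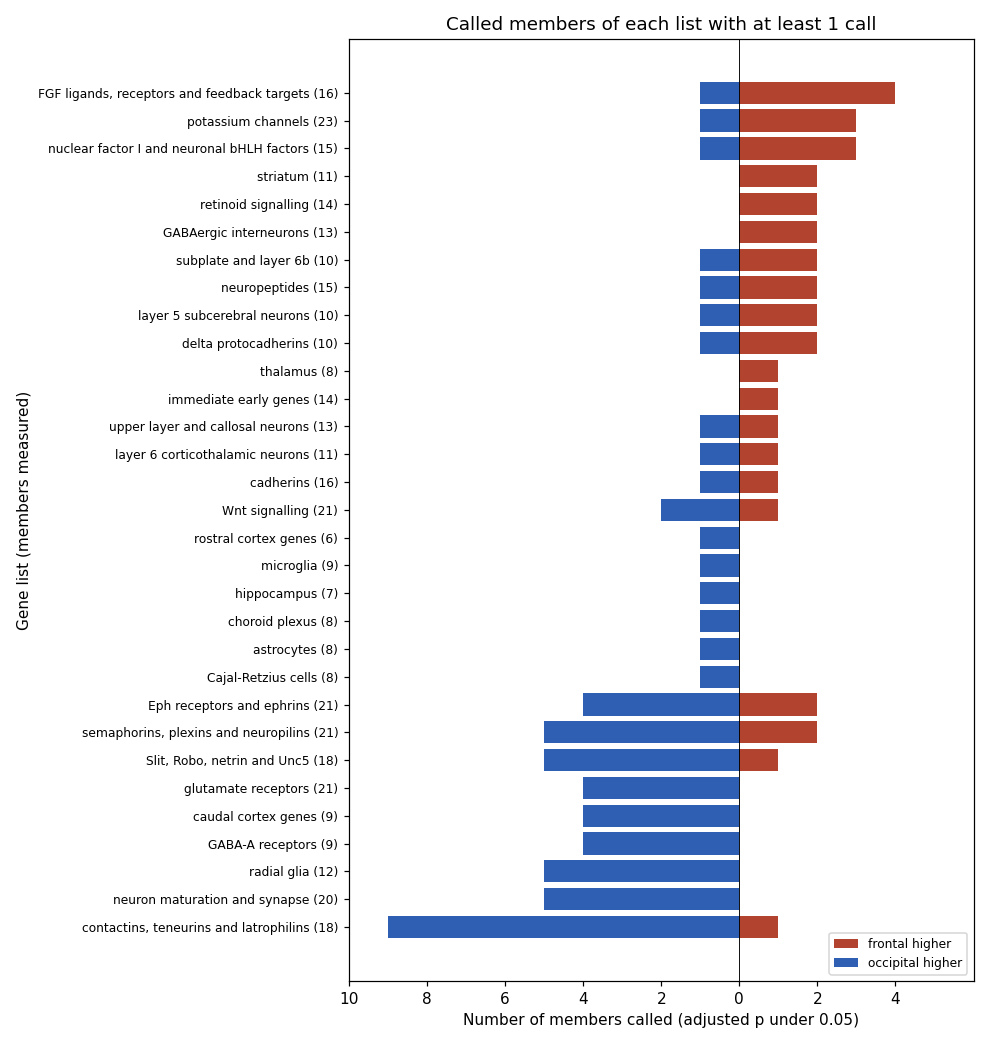
Number of members of each gene list called higher in frontal (right) and in occipital tissue (left), with the number measured in brackets, for the lists with at least 1 call. The contactin, teneurin and latrophilin list had the most calls on the occipital side (9) and the FGF list the most on the frontal side (4).

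Genes of neighbouring tissue were followed to see what else the dissection held. None of the 9 meningeal, 9 endothelial, 6 olfactory bulb, 6 midbrain and hindbrain or 4 Zic genes was called, beside 6.03% of all genes. Their list medians were 0.183, 0.283, 0.11, 0.207 and 0.042. With so few genes a list, the lack of calls does not show that the regions are alike in these tissues. The meningeal mean also ranged from 7.05 to 9.82 between arrays of 1 group, which makes a call of its genes unlikely. With the meningeal mean as a covariate 1533 genes were called. In the choroid plexus list Ttr, the thyroid hormone carrier, was called at -3.17 (SE 0.881, limma adjusted p = 0.0336), the largest difference of all called genes, but its groups overlapped. It read 6.54, 6.55, 6.53 and 6.56 in frontal and 12.33, 10.16, 9.97 and 6.39 in occipital arrays, so that 3 occipital arrays carried it and replicate 4 did not. The call was lost without frontal 3 or 4 or occipital 1, 2 or 3 (highest limma adjusted p 0.104). The other 7 choroid plexus genes were not called, with Kcnj13 at -0.46 and Clic6 at -0.37. With the mean of the choroid plexus list as a covariate 4158 genes were called. Without occipital 1, the array with the most choroid plexus and thalamus signal, 1462 genes were called. Without occipital 2 or occipital 3, which also carried Ttr, 441 and 556 were called, and 294 without both. The part of choroid plexus tissue in these counts was not tested.

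In the striatum list Ppp1r1b and the dopamine receptor Drd1 (0.39) were higher in frontal tissue, while Drd2 (0.00), Penk (0.01) and Ebf1 (-0.10) were not called. Both called genes are also made by deep cortical neurons, and which cells or tissue they came from here was not tested. The list's mean level was 7.97 to 8.14 in frontal and 7.80 to 8.13 in occipital arrays. Drd1 was lost without frontal 2 or 3 or occipital 1 or 4 (highest limma adjusted p 0.0922). In the interneuron list Npy and the transcription factor Npas1 (0.35) were higher in frontal tissue, and Gad1 (-0.25), Gad2 (-0.22), Lhx6 (0.08) and Sst (0.29) were not called. In the thalamus list Rgs16 (0.39) was called on the frontal side and Tcf7l2 (-0.46), Lhx9 (-0.49) and Slc17a6 (-0.41) were not called. In the hippocampus list the mineralocorticoid receptor Nr3c2 (-0.44) was called on the occipital side, and lost without frontal 3 or 4 or any of occipital 1 to 4 (highest limma adjusted p 0.115).

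Mir376a, the microRNA gene among the 15 largest occipital differences, lies in the imprinted Dlk1-Dio3 region, where many microRNA hairpins are cut from long noncoding RNAs made from the maternal chromosome. Its neighbours were therefore examined, a set chosen after the value of Mir376a had been seen. Of 57 microRNA genes within 200 kb of it, the 39 measured ones span chr12:109571990-109743496 (plus strand, RefSeq, GRCm38.p6). The called members with a RefSeq mature sequence gave 40 mature sequences with 38 seeds, and shown are an arm of Mir376a, the member with the largest difference, and both pairs that share a seed, with bases 2 to 8 (the seed) in capitals.
mmu-miR-376a-3p: aUCGUAGAggaaaauccacgu
mmu-miR-376b-5p: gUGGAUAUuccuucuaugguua
mmu-miR-376c-5p: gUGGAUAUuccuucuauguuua
mmu-miR-379-3p: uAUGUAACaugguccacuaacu
mmu-miR-411-3p: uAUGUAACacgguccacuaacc

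Of the 39 measured microRNA genes of this region 21 were called, all of them higher in occipital tissue, beside 3.77% of all genes on that side, and 34 of the 39 had a difference below 0. The median was -0.46, against 0.021 for the 220 other microRNA genes measured, of which 8 were called on the occipital and 4 on the frontal side. The values of 17 of the 39 did not overlap between the groups, beside 12.6% of all genes. Mir376a read 4.54, 4.73, 3.47 and 3.36 in frontal and 5.09, 5.24, 5.19 and 5.49 in occipital arrays (difference -1.23, SE 0.333, limma adjusted p = 0.0291). Its values were low, and frontal replicates 3 and 4 were more than 1 log2 unit below replicates 1 and 2.

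Mir329 and Mir127, called members of higher signal, had less spread. Mir329 read 7.70, 7.93, 7.80 and 7.44 in frontal and 8.32, 8.24, 8.36 and 8.24 in occipital arrays (difference -0.57, SE 0.099, limma adjusted p = 8.45e-04), and Mir127 read 8.16, 7.98, 8.24 and 7.85 against 8.38, 8.49, 8.43 and 8.42 (-0.37, SE 0.096). Mir376c and Mir376b, which share the seed of their 5′ arms, stood at -0.98 and -0.86, and Mir379 and Mir411, which share that of their 3′ arms, at -0.75 and -0.59. Members of still higher signal were not called, among them Mir667 at 0.16, Mir341 at 0.06, Mir673 at 0.14 and Mir679 at -0.09. The mean over all 39 was 7.27, 7.34, 7.04 and 6.84 in frontal, 7.32, 7.38, 7.31 and 7.36 in parietal and 7.46, 7.63, 7.52 and 7.66 in occipital arrays. The occipital values lay above the others and the parietal values overlapped the highest frontal one, in a set drawn around a gene chosen for its difference.

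The long noncoding RNA Meg3 of the same region was called at -0.25 (SE 0.0585, limma adjusted p = 0.0139), and Rian stood at -0.27 (adjusted p = 0.25). The paternally expressed Dlk1 stood at 0.20 and was not called. Probe sets here are named by gene, so the hairpin, its long precursor and the mature arms cannot be told apart. The 21 calls were 12 when the dimmest 30% of genes were left out, 7 in a fit of the 8 arrays alone, 5 without frontal 4, 7 without occipital 2, and 10 without frontal 3 or without occipital 3, and Mir376a itself was lost without frontal 3 or 4 or occipital 2, 3 or 4 (highest adjusted p 0.132).

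**Figure D5:**
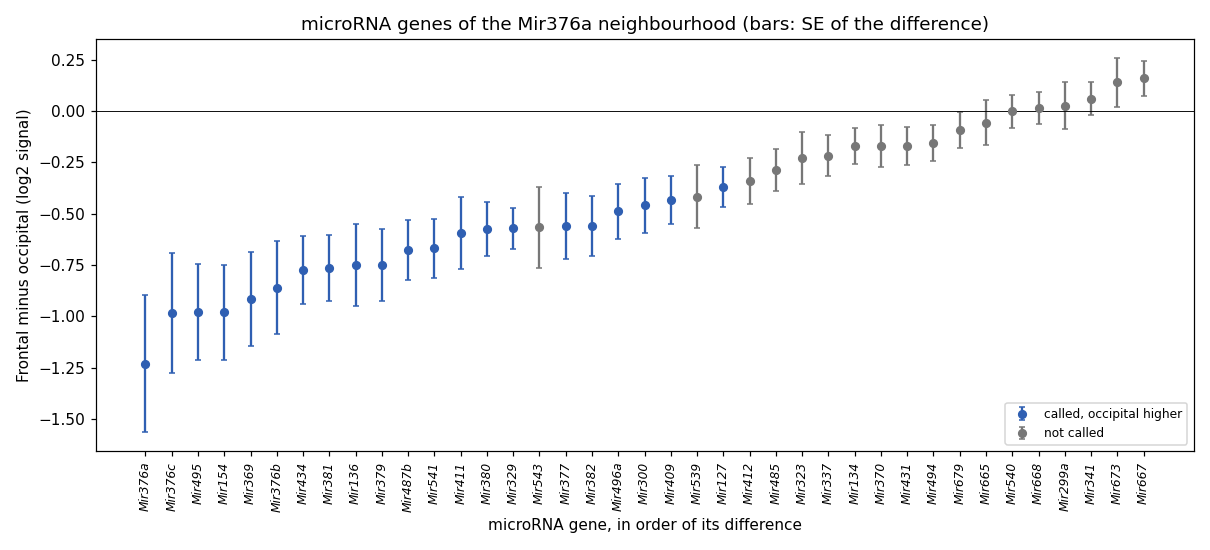
Frontal minus occipital difference (points) with its SE (bars) for the 39 measured microRNA genes around Mir376a, ordered by the difference. The 21 called genes lie between -1.23 and -0.37, and no member above 0 was called.

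Outside this region 12 microRNA genes were called, and 2 of them lay inside a called protein-coding gene. Mir218-1, inside Slit2, stood at -0.67 (SE 0.14, limma adjusted p = 0.00521) beside -1.04 for Slit2, and Mir490, inside the muscarinic receptor gene Chrm2, at 0.67 (SE 0.165, adjusted p = 0.0168) beside 0.90 (SE 0.152). Mir218-1 read 6.81, 6.70, 6.52 and 6.60 in frontal and 6.99, 7.46, 7.51 and 7.36 in occipital arrays. Their mature forms (RefSeq, GRCm38.p6, plus strand, at chr5:48223966-48223986 and chr6:36421800-36421821) are shown with the seed in capitals, to mark which products these hairpins yield.
mmu-miR-218-5p: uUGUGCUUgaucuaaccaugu
mmu-miR-490-3p: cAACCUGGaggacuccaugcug

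Mir153 (-0.58) was called while its host Ptprn2 (-0.09, limma adjusted p = 0.476) was not. Likewise Mir7-1 (-0.49) was called without Hnrnpk (-0.11, adjusted p = 0.24). The hosts of the called genes Mir135b (Lemd1), Mirlet7g (Wdr82), Mir224 (Gabre) and Gm24148 (Ncl) were not called either. Mir137 stood at -0.82 (SE 0.162).

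Parietal tissue, which lies between the other regions, shows whether the differences were graded. Of the 1202 genes, 1135 (94.4%) had a parietal mean between the frontal and occipital means, at a median of 48.6% of the way from occipital to frontal (quartiles 34.6% and 65.9%). The genes were chosen on the outer groups, so this is a description. Over all genes 10797 of 19938 had a parietal mean between. The tests against parietal tissue called few genes, 34 for frontal minus parietal (0.171%) and 90 for parietal minus occipital (0.451%), of which 32 and 84 were among the 1202. Of the 34, 12 (0.0602%) were higher in frontal and 22 (0.11%) in parietal tissue, and of the 90, 51 (0.256%) were higher in parietal and 39 (0.196%) in occipital tissue. These tests share the frontal or the occipital arrays with the main comparison. The 34 were 69 without frontal replicate 1 and 63 without frontal replicate 3. The 90 were 57 without occipital replicate 4, 55 without parietal replicate 2 (with the Y-linked mean of 5.76), 46 without parietal replicate 3 and 47 without parietal replicate 4.

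The position of the parietal mean differed between genes. Nr2f1 lay at 47.5% and Egfem1 at 54.2% of the way to frontal, and both passed the test against each neighbour (Egfem1 -0.95 and -1.13; Nr2f1 -0.65 and -0.59 for frontal minus parietal and parietal minus occipital). Tgfbr1 (90.6%), Kcnh1 (93.4%) and Npy (84.6%) lay near the frontal mean, with parietal minus occipital differences of 1.02, 0.97 and 1.13 that were called and frontal minus parietal differences of 0.11, 0.07 and 0.20 that were not. Mc4r (9.09%), Rxfp1 (6.12%) and Bhlhe40 (27.4%) lay near the occipital mean, with called frontal minus parietal differences of 1.17, -1.26 and 0.92. Nts fell outside the range, with 10.16, 10.64, 10.38 and 10.40 in the parietal arrays, a frontal minus parietal difference of -3.37 (limma adjusted p = 0.00108) and an uncalled parietal minus occipital difference of 0.85.

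KO tissue showed whether the same genes differed along the axis without Tbr1. In KO 643 genes (3.22%) were called between frontal and occipital tissue, 293 frontal (1.47%) and 350 occipital higher (1.76%), and 247 were called in both, which is 20.5% of the WT calls and 38.4% of the KO calls. Of these 243 had the same direction. Over the 751 occipital genes the median difference was -0.38 in WT and -0.15 in KO, and over the 451 frontal genes 0.375 and 0.025, but the genes were chosen in WT. The difference itself was tested as an interaction, which called 83 genes (0.416%), 43 of them among the 1202. In KO the Y-linked mean was 5.09 to 5.99 in the frontal arrays and 9.32, 9.18, 5.88 and 9.02 in occipital replicates 1 to 4. Occipital replicate 3 thus lay within the frontal range and the other occipital arrays lay above it. With the Y-linked mean as a covariate 247 KO genes and 12 interactions were called. Because this mean nearly followed region in KO, that fit cannot tell lost precision from an effect of the sex-linked signal. Xist read 11.96 to 12.2 in the KO frontal arrays and 5.65 to 6.39 in the WT frontal arrays. Genotype and sex-linked signal therefore cannot be told apart in frontal tissue, which limits every comparison of KO with WT given here. Leaving out 1 WT array gave 147 interactions (frontal 1), 34 (frontal 4), 187 (occipital 1), 31 (occipital 2) or 35 (occipital 3). Leaving out 1 KO array gave 46, 152, 45 or 29 (frontal 1 to 4), 50 (occipital 2) or 42 (occipital 3).

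Among the 15 largest frontal genes 8 were called in KO with the same sign, S100a10 (1.04) and Npy (1.91) among them, and 8 of the 15 occipital genes were, Nts (-3.71), Nr4a2 (-1.36), Kcng3 (-1.24), Tshz2 (-1.31) and Nr2f1 (-0.88) among them. Bhlhe40 stood at 1.26 in WT and -0.13 in KO (interaction -1.39, limma adjusted p = 2.70e-04). Bcl6 stood at 1.39 and 0.03 (interaction -1.36, adjusted p = 0.005), and Pappa2 at 1.04 and -0.01 (-1.05, adjusted p = 0.00746). On the occipital side Egfem1 went from -2.08 to -0.56 (interaction 1.52, adjusted p = 1.75e-04), Met from -1.87 to -0.54 (1.33, adjusted p = 0.0136) and Tenm3 from -1.55 to -0.56 (0.98, adjusted p = 0.00162).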

How the data were processed

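RNA of 24 P0.5 samples was hybridised to single-colour Affymetrix gene arrays. The deposited values are log2 signals made by the authors with Affymetrix Expression Console 1.1 and RMA, per the submitters' processing notes, which do not give each step. RMA fits probes over all arrays together, so the arrays are not wholly independent. Of 35557 probe sets 21789 name 1 gene, 1621 several and 12147 none in the platform annotation. Where several probe sets read 1 gene, that of highest mean signal was used, leaving 19938 genes. Differences were tested with limma 3.58.1 in R 4.3.3, in 1 fit of 6 groups (18 residual degrees of freedom, intensity trend, two-sided), with Benjamini-Hochberg adjustment over all genes and a threshold of 0.05. Nothing says that samples of a group came from separate animals. Named were the 15 largest called, non-overlapping differences each way, Tbr1, Xist, the called members of the gene lists and up to 4 members a list by p; further members were named as examples after their values were seen. Members and lists were chosen with earlier results of these data known. Data were simulated with independent normal noise for each gene and array, and with 100 genes changed at each size. On these the fit recovered 76% of changes of 0.5 and 99% of changes of 1 on the log2 scale. Shifts shared by the genes of an array were not simulated, so these rates need not hold for the real arrays. Alternatives were another probe set rule, a filter on dim genes, medians, quantile normalization, no trend, array weights, a replicate block, covariates, the compared arrays alone and leaving out arrays.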

Additional observations from a re-analysis of the deposited data

Results flagged for a closer look

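In 16 of 238 groups of 4 values (6.72%, 119 genes in WT frontal and occipital tissue) 1 array stood apart from the others by Dixon's criterion, where chance gives about 1 in 20. Frontal replicate 3 did so for Egfem1 (6.57, the others 7.06 to 7.14), Usp17ld (9.38), Pla2g7 (6.74), Dusp6 (9.21), Spred2 (10.53) and Sema3e (7.28). Frontal replicate 4 did so for Gabra4 (7.61), Gabrb1 (8.18) and Nefl (8.72), and frontal replicate 1 for S100a10 (10.98, the others 11.11 to 11.14). Among occipital arrays replicate 1 stood apart for Neo1 (11.05) and Flrt3 (8.82), replicate 2 for Fgfr3 (8.60) and Grm7 (10.06), replicate 3 for Sema6d (9.15) and replicate 4 for Kcna1 (7.36).

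For 15 named genes the frontal minus occipital difference itself differed between KO and WT in the limma interaction test. KO minus WT was -1.36 for Bcl6, -1.39 for Bhlhe40, -1.05 for Pappa2, -0.81 for Ppp1r1b, -0.77 for Syt6 and -0.69 for Nxph4, genes that were higher in frontal tissue of WT. It was 1.52 for Egfem1, 1.33 for Met, 0.98 for Tenm3, 1.41 for Vwc2l, 1.05 for Gda, 1.66 for Cntn6, 1.69 for Ndnf, 0.70 for Pcdh8 and 1.05 for Cntn3, genes that were higher in occipital tissue of WT. Cntn6 stood at -1.10 in WT and 0.56 in KO, and Ndnf at -0.87 and 0.82. With the Y-linked mean as a covariate 12 interactions were called over all genes, against 83 without it. In the frontal arrays genotype and sex-linked signal cannot be told apart.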

How the results depend on the processing

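The 1202 calls between WT frontal and occipital tissue were 287 in a fit of the compared arrays alone, 294 without occipital replicates 2 and 3 together and 4158 with the choroid plexus mean as a covariate, the last pair chosen after seeing the data. They ranged from 441 to 1917 with 1 array left out. The 294 were 160 frontal and 134 occipital higher, and the 4158 were 2065 and 2093, against 451 and 751 in the main fit. The 93 list members were 48 and 60 in the first 2 of these settings (63 to 104 with 1 array left out), and the 21 microRNA genes were 7 and 2, and 12 without the dimmest 30% of genes (5 to 23). The 643 KO calls were 1549 with array weights and 247 with the Y-linked covariate (441 to 540). The 83 interactions were 530, 12 and, from the compared arrays alone, 32 (29 to 187). Array weights gave 134 calls for frontal minus parietal, against 34 (24 to 69), and 452 for parietal minus occipital, against 90 (46 to 104), which quantile normalization made 136. The cause of these shifts was not tested. Same-numbered frontal and occipital arrays correlated at 0.0581 to 0.393 in their deviations, 3 of the 4 above 0.1, and 1 of the 4 numbers matched best with itself. The meningeal mean was also high in replicates 1 and 4 of both regions. What the numbers mark is not stated, and the arrays were not treated as pairs. With the replicate number as a block 1076 genes were called, 969 of them among the 1202, and 9 of the named genes lost their call (Cdh11, Efna2, Fgf18, Grik1, Neurod1, Nr4a1, Slit1, Sox2 and Usp17ld). Of 114 called named genes 52 were called under all 20 alternatives and none was reversed. Signals near background and 4 arrays a group limit small differences.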

Other observations

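Genes of motile cilia, the beating hairs of ependymal and choroid plexus cells, were examined from a list of 54 measured genes that was written after some of its values had been seen, so its counts describe these arrays and were not tested. Of these 13 were called by limma as higher in occipital tissue and 1, Tekt1 (0.26), as higher in frontal tissue, beside 3.77% and 2.26% of all genes, and 36 were below 0 with a median of -0.10. The called genes included Nme5 (-0.82), Enkur (-0.77), Cfap54 (-0.72), the tektin Tekt2 (-0.64), the dynein heavy chains Dnah6 (-0.60) and Dnah5 (-0.46), the radial spoke genes Rsph4a (-0.41) and Rsph1 (-0.35) and the factor Rfx3 (-0.39). Foxj1, the main transcription factor of motile cilia, stood at 0.03 and was not called. The list's mean was 6.71, 6.71, 6.80 and 6.77 in frontal, 6.83, 6.76, 6.75 and 6.76 in parietal and 6.88, 6.97, 6.98 and 6.84 in occipital arrays, so that the frontal and occipital arrays did not overlap. The choroid plexus mean was also higher in 3 of the 4 occipital arrays (8.02, 7.09 and 6.96) than in every frontal array (6.54 to 6.91), and its part in these values was not tested.

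Other called genes of at least 1.5-fold lay outside the lists and were picked after their values were seen. On the frontal side they included Cldn1, a tight junction protein (0.97), the kinase Prkch (0.96), the orexin receptor Hcrtr2 (0.88), the large cadherin Fat3 (0.86) and the adhesion molecule Sdk1 (0.83). On the occipital side they included Rasgef1b (-1.14), Vat1l (-1.14), the LIM-only factor Lmo1 (-1.11), Mlc1, a membrane protein of astrocytes (-1.01), and the serotonin receptor Htr2c (-0.86).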
